A study of Rattus norvegicus with 24 samples.

Results

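The miRNAs described here, rno-miR-126, rno-miR-130a, rno-miR-28 and rno-miR-199a-3p, are known from platelets and endothelium and were read on a rat miRNA array. Each was found by an exact match of its array name, which gave 4 of the 677 miRNAs on the array, and the prefix is left out from here on. The RNA came from peripheral blood mononuclear cells of female Wistar rats, separated on a Ficoll gradient, and was read on 24 one-colour Agilent arrays, 2 for each of 12 groups. Healthy untreated animals (NOCIA) were sampled before therapy, at 1 hour and at 34 days. The other animals had collagen-induced arthritis (CIA), raised with bovine type II collagen in Freund's adjuvant, and all arthritic arms share that induction. Untreated arthritic animals were sampled before therapy and are called CIA. Arthritic animals were then sampled at 1 hour and at 34 days of mechanical stimulation by a subcutaneous needle (MS), of weekly intraperitoneal methotrexate (MTX), of saline in its place (PLA), or of no therapy but isoflurane instead of ether at blood sampling (ANE). The labels name these groups AP for MS, NORA for NOCIA and RA for CIA. The labels list the 24 samples separately, p-values measure only the spread between them, and the animals' age and whether a sample held more than 1 animal are not given in the sources used here.

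A miRNA guides a silencing complex to messenger RNAs, mainly through its seed, the bases near its 5′ end. miR-126 lies inside the endothelial gene Egfl7 and is known for supporting vascular integrity, and it is also carried by platelets. miR-130a belongs to a seed family studied in megakaryocytes and vessel growth, miR-28 lies inside the gene Lpp, and miR-199a-3p is abundant in platelets and in fibroblasts. None of the 4 is confined to platelets or endothelium, and a gradient fraction of blood can hold both platelets and other cells.

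The mature sequences are shown so that seeds and relatives can be compared, with the seed (bases 2 to 8) in capitals. They were taken from RefSeq (build GRCr8), where miR-199a-3p matched by its exact name. The other 3 array names carry no arm, and the arm printed is the one that later nomenclature gives to the name without a star, miR-126a-3p, miR-130a-3p and miR-28-5p.
miR-126: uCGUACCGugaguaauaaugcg
miR-130a: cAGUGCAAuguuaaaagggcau
miR-28: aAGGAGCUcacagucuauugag
miR-199a-3p: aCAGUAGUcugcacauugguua

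The 4 seeds differ from each other. The sequences lie at chr3:29813219-29813240 on the plus strand for miR-126, chr3:90229240-90229261 on the minus strand for miR-130a, chr11:89480303-89480324 on the minus strand for miR-28 and chr13:77116294-77116315 on the plus strand for miR-199a-3p. In the RefSeq annotation miR-126 falls within the span of Egfl7, miR-28 within Lpp and miR-199a-3p within Dnm3, while no longer gene spans miR-130a. Exon or intron was not determined here. Among the 693 mature rat miRNAs in the RefSeq table used, 2 others share the miR-130a seed, 1 shares that of miR-28 and none shares those of miR-126 and miR-199a-3p. The sequence of miR-301a-3p was not compared here, so these counts do not cover it. The relatives are shown to mark where they part from the members.
miR-130b: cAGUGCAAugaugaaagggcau
miR-301b: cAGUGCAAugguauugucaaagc
miR-708: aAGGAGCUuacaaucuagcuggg

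Aligned from the first base without gaps, miR-130b has the same base as miR-130a at 20 of 22 positions, and a probe for one may capture some of the other. miR-301b matches miR-130a at 13 of 22 positions and miR-708 matches miR-28 at 16 of 22. miR-708 was detected on no array, so miR-28 had no detected relative with its seed here.

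An array detected 145 to 207 miRNAs with a total intensity, over those detected, of 137544 to 519917, and no spot was saturated. The 2 brightest arrays were replicate 1 of MS at 34 days and replicate 1 of MS at 1 hour, and they needed the smallest scale factors, 0.456 and 0.452 (range over arrays 0.452 to 1.42). The median absolute difference between the 2 arrays of a group, over the 132 miRNAs detected on all arrays, was 0.60 (MS at 1 hour) and 0.48 (MS at 34 days) on the log2 scale, compared with 0.08 to 0.43 in the other 10 groups. The arrays lay on 3 slides of 8 with each group on 1 slide, so slide and group cannot be told apart in the 8 comparisons that cross slides, and 10 of the 18 comparisons stayed within a slide. Values below are log2 of the intensity scaled to a common 75th percentile, unless stated otherwise.

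miR-126, miR-130a and miR-28 were detected on all 24 arrays, and miR-199a-3p on 2. Each miRNA was read by 2 probes of 10 spots. For miR-130a, all 10 spots of both probes were well above background on all 24 arrays. The brighter probe of miR-126 did so on all 24 arrays too, while its dimmer probe had no such spot on 5 arrays. The 2 probes of a miRNA followed each other across arrays, with Pearson's r of 0.991 for miR-126, 0.998 for miR-130a and 0.993 for miR-28 (24 arrays, unscaled log2 signals, which also share each array's overall brightness). The error that the scanner software listed was 7.13% to 7.21% of the signal for miR-130a, 7.57% to 10.71% for miR-28 and 7.99% to 14.9% for miR-126.

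**Figure D1:**
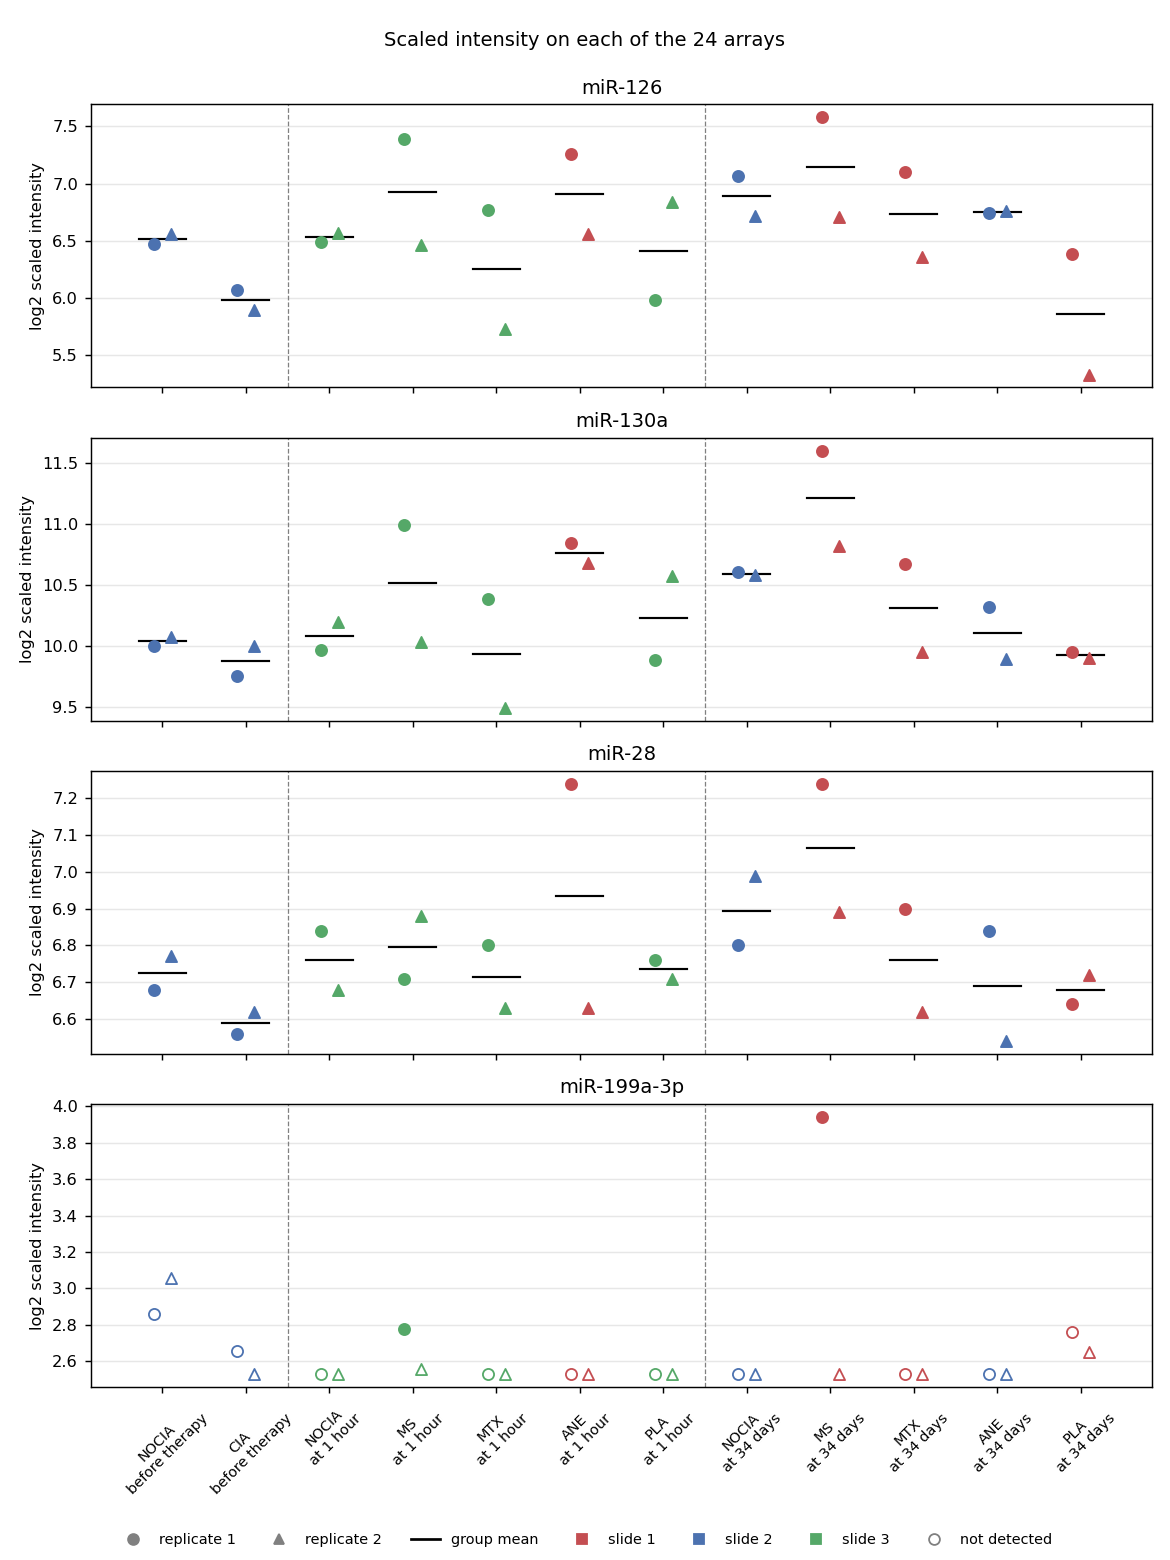
Log2 scaled intensity (vertical axis) of the 4 miRNAs on each array, by group (horizontal axis). Circles are replicate 1, triangles replicate 2, black bars the mean of 2 arrays, colours the 3 slides, open symbols arrays on which the miRNA was not detected, and 2.53 is the floor. The highest value of miR-126 (7.58) and of miR-130a (11.60) is replicate 1 of MS at 34 days, and miR-199a-3p was detected on the 2 MS arrays numbered 1.

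miR-126, the vascular miRNA of the set, spanned 2.25 on the log2 scale, from 5.33 on replicate 2 of PLA at 34 days to 7.58 on replicate 1 of MS at 34 days. Its group mean was highest in MS at 34 days (7.15 ± 0.62, SD, n = 2) and lowest in PLA at 34 days (5.86 ± 0.74). The next highest were MS at 1 hour (6.92 ± 0.66) and ANE at 1 hour (6.91 ± 0.49), and the next lowest was CIA before therapy (5.98 ± 0.12). All 11 pairs of neighbours in the order of the 12 groups overlapped. Neighbours have the closest means in this order, so such counts, here and below, cannot show whether groups farther apart separate. The 2 arrays of a group differed by 0.02 to 1.05, with a median of 0.72, against a range of 1.29 between group means.

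miR-130a, the member with the seed family above, spanned 2.11, from 9.49 on replicate 2 of MTX at 1 hour to 11.60 on replicate 1 of MS at 34 days. MS at 34 days had the highest mean (11.21 ± 0.55), followed by ANE at 1 hour (10.76 ± 0.11) and NOCIA at 34 days (10.59 ± 0.02). CIA before therapy (9.88 ± 0.17) and PLA at 34 days (9.92 ± 0.03) were lowest. Among the 11 neighbouring pairs, 10 overlapped. As a share of the summed intensity of its array, which no scaling touches, miR-130a ran from 0.362% to 1.31%, with a median of 0.540%, and the 2 MS arrays numbered 1 had 1.31% (34 days) and 1.21% (1 hour).

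miR-28 varied least of the 3 members detected on all arrays, with a span of 0.70 from 6.54 to 7.24. Its group means ran from 6.59 ± 0.04 in CIA before therapy to 7.07 ± 0.24 in MS at 34 days, a range of 0.48. Its 2 arrays of ANE at 1 hour were 7.24 and 6.63, nearly the whole span within 1 group. The 11 neighbouring pairs overlapped in 10 cases.

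miR-199a-3p was detected on replicate 1 of MS at 34 days, with an unscaled intensity of 33.6 and a listed error of 5.22, while replicate 1 of MS at 1 hour had 15.2 and an error of 3.23. The value on the other 22 arrays was the listed error itself, 3.63 to 6.11. Both arrays on which it was detected are those with the largest summed intensities. Of 13 miRNAs detected on exactly 2 arrays, 8 were detected on this same pair, among them miR-126*, the strand partner of miR-126, with 29.1 at 34 days and 24.5 at 1 hour. With detection on 2 arrays, miR-199a-3p did not pass the filter of 3 and was not tested. No fold is given for it in any comparison, since 1 of the 2 arrays of each MS group did not detect it either. Its strand partner miR-199a-5p and its cluster neighbour miR-214 were detected on no array.

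Differences were tested with limma in one model of all 24 arrays and 210 miRNAs, in which 3 of the 4 members took part. A call is an adjusted p under 0.05 (Benjamini-Hochberg over the 210), and 2 arrays against 2 cannot give less than 0.333 in a two-sided exact permutation test, so limma's p alone is given. Of the 54 member tests 1 was a call and 7 (13%) had an unadjusted p under 0.05, against 11.4% of the 3780 tests of all miRNAs.

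CIA against NOCIA before therapy sets arthritic beside healthy animals. Arthritis cannot be told apart there from the collagen and adjuvant that induced it. None of the 3 members was called and none had an unadjusted p under 0.05, while 0.952% of all miRNAs tested were called and 7.62% had such a p. miR-126 stood at 6.07 and 5.89 in CIA and at 6.47 and 6.56 in NOCIA. The difference was -0.54 ± 0.47 (SE, 95% interval -1.54 to 0.47, adjusted p = 0.938). miR-130a was 9.75 and 10 in CIA and 10 and 10.07 in NOCIA, a difference of -0.16 ± 0.38 (-0.96 to 0.65, adjusted p = 0.98). For miR-28 the values were 6.56 and 6.62 against 6.68 and 6.77, with a difference of -0.13 ± 0.19 (-0.55 to 0.28, adjusted p = 0.944). Scaling over all miRNAs gave 0.05 for miR-130a and 0.08 for miR-28, and quantile normalisation 0.04 for miR-28, so the sign of these 2 differences turned with the scaling.

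MS at 34 days against CIA before therapy, groups that also differ by the 34 days between the samples and by slide, gave the single call. miR-130a rose from 9.75 and 10 in CIA to 11.60 and 10.82 in MS, a difference of 1.33 ± 0.38 (SE, 95% interval 0.53 to 2.14), or 2.52-fold, with adjusted p = 0.0383. The 2 groups did not overlap. In this comparison 19.0% of all miRNAs tested were called and 48.6% had an unadjusted p under 0.05, so a call here was common, and miR-130a ranked 19 of 210 from the largest rise. miR-126 was 7.58 and 6.71 in MS against 6.07 and 5.89 in CIA, a difference of 1.17 ± 0.47 (0.17 to 2.17) that missed the threshold (adjusted p = 0.0663). miR-28 was 7.24 and 6.89 against 6.56 and 6.62, a difference of 0.48 ± 0.19 (0.06 to 0.89, adjusted p = 0.0695). For all 3 members both MS arrays lay above both CIA arrays, as did 43.3% of all miRNAs tested, and replicate 1 was the higher MS array.

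The call on miR-130a depended on several choices. Without replicate 1 of MS at 34 days the difference was 0.94 with adjusted p = 0.464, and without replicate 2 it was 1.72 with adjusted p = 0.0132. Leaving out either CIA array, replicate 1 or 2, also ended the call (adjusted p = 0.131 and 0.115). Without replicate 2 of MS, where the 1 array left is assumed to vary like the other groups, all 3 members were called, miR-126 at 1.61 and miR-28 at 0.65 (adjusted p = 0.0313 for both), and the count over all miRNAs was 103 instead of 40, against 0 without replicate 1. Each probe alone gave a like difference, 1.32 and 1.35. The groups lie on different slides, so slide and treatment cannot be told apart.

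MS against PLA at 34 days sets the needle beside the placebo on the same slide. By limma no miRNA was called (0% of 210). An unadjusted p under 0.05 was found for 40.0% of them, 84 miRNAs, and for 2 of the 3 members. miR-130a was 11.60 and 10.82 in MS and 9.95 and 9.90 in PLA, a difference of 1.29 ± 0.38 (0.48 to 2.09, adjusted p = 0.0622). miR-126 was 7.58 and 6.71 against 6.38 and 5.33, a difference of 1.29 ± 0.47 (0.29 to 2.29, adjusted p = 0.0701). miR-28 stood at 7.24 and 6.89 against 6.64 and 6.72, with 0.38 ± 0.19 (-0.03 to 0.80, adjusted p = 0.141). For all 3 both MS arrays lay above both PLA arrays, as did 43.3% of all miRNAs. Without replicate 2 of MS, under the same assumption, the differences of miR-130a (1.67, adjusted p = 0.0182) and miR-126 (1.73, adjusted p = 0.0275) passed the threshold, as did 91 of all miRNAs, and without replicate 1 of MS they were 0.90 and 0.86 (adjusted p = 0.585 for both).

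**Figure D2:**
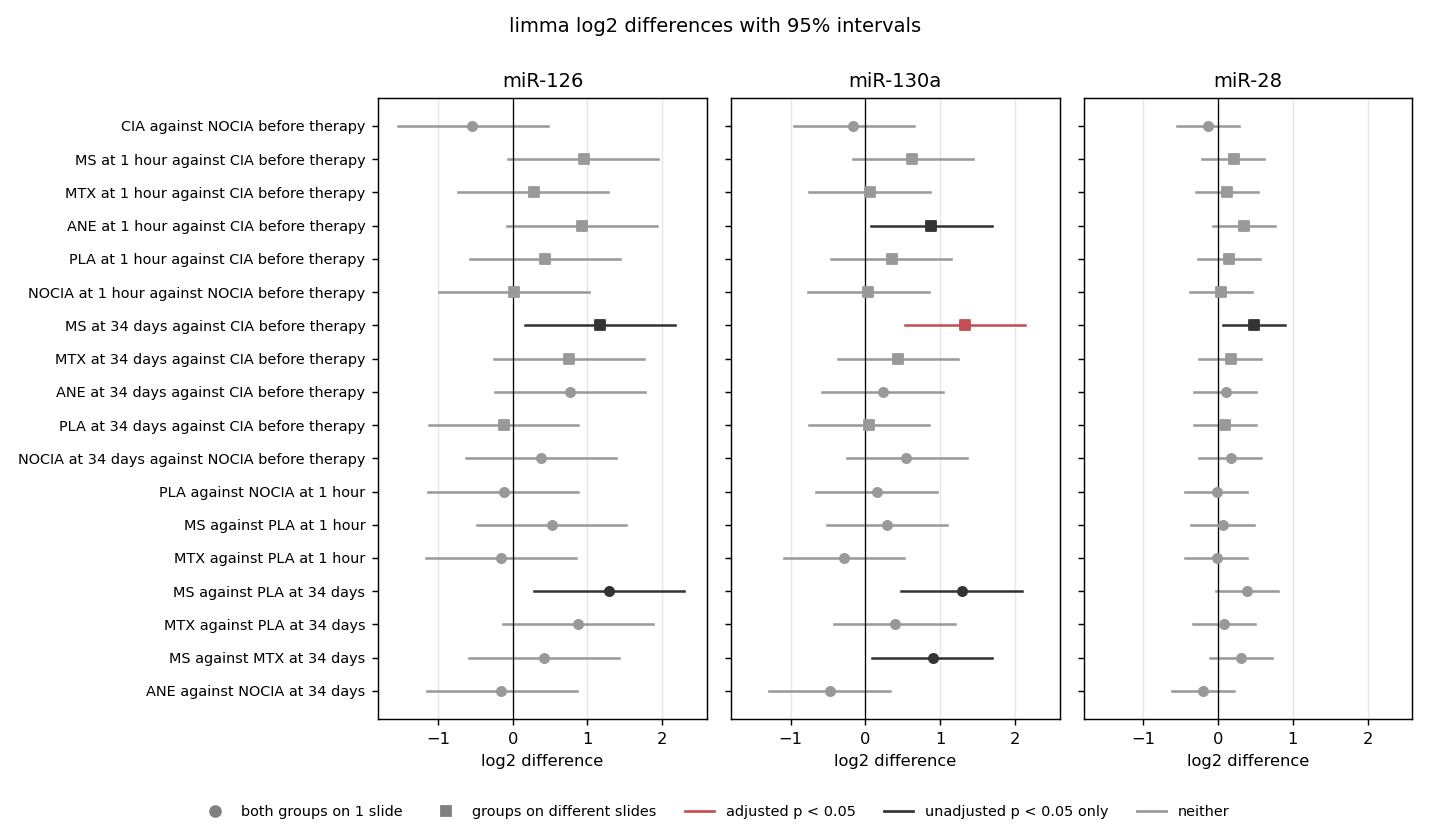
Log2 difference (horizontal axis) of miR-126, miR-130a and miR-28 in each of 18 comparisons, with 95% intervals from limma. Circles compare groups on 1 slide and squares groups on different slides. Red marks the single difference with an adjusted p under 0.05, miR-130a in MS at 34 days against CIA (1.33), and black marks an unadjusted p under 0.05 only.

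In 2 other comparisons a member had an unadjusted p under 0.05, miR-130a each time. ANE at 1 hour, with 10.84 and 10.68, stood 0.88 ± 0.38 above CIA before therapy (0.08 to 1.69, adjusted p = 0.263), where 0.476% of miRNAs were called and 18.1% had an unadjusted p under 0.05. That 1 call was miR-122, the main liver miRNA, at 8.96 and 5.43 in ANE and not detected in CIA. Its part in the miR-130a difference was not tested. ANE at 1 hour lies on slide 1 and CIA on slide 2, so slide and treatment cannot be told apart there. The median of miR-130a over the 8 arrays of a slide was 10.68 on slide 1, 10.04 on slide 2 and 10.11 on slide 3. MS at 34 days stood 0.90 ± 0.38 above MTX at 34 days, whose arrays had 10.67 and 9.95 (0.09 to 1.70, adjusted p = 0.259), with 0% called and 17.6% under 0.05 unadjusted. Without replicate 1 of MS this difference was 0.51, and without replicate 2 of MTX 0.53 (adjusted p = 1 for both).

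Across the 17 comparisons other than MS at 34 days against CIA, no member was called. The share of all miRNAs called ran from 0%, in 10 of them, to 2.38% in NOCIA at 1 hour against its first sample. It was 1.43% in MTX at 1 hour against CIA. Of the 51 member tests there, 4 had an unadjusted p under 0.05. Over all 18 comparisons 13% of member tests had such a p, against 11.4% of the tests of all miRNAs. Besides those against PLA at 34 days, no difference exceeded 0.95 in size. At 1 hour MS stood above PLA by 0.52 ± 0.47 for miR-126 and 0.29 ± 0.38 for miR-130a, with overlapping arrays. Under MTX the differences from PLA at 34 days were 0.87 ± 0.47 for miR-126 (adjusted p = 0.922) and 0.39 ± 0.38 for miR-130a (adjusted p = 0.922). PLA at 34 days against CIA gave -0.12 ± 0.47, 0.05 ± 0.38 and 0.09 ± 0.19 for miR-126, miR-130a and miR-28. In healthy animals between the first sample and 34 days they were 0.38 ± 0.47, 0.55 ± 0.38 and 0.17 ± 0.19, with both later arrays above both earlier ones for each member, as for 47.1% of all miRNAs, and no call. The intervals of about 1 in either direction for miR-126, or 0.4 for miR-28, leave room for changes of that size. All comparisons with CIA before therapy share its 2 arrays.

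miR-126 and miR-130a followed each other from array to array. Over the 24 arrays Pearson's r was 0.831 (Spearman's rho 0.816), it was 0.856 with slide means removed and 0.821 with group means removed, so that the arrays of 1 group varied together as well. Without the 2 MS arrays numbered 1 it was 0.760. These correlations are a description, since the arrays share scaling, slides and the spread of sample composition, and the median r of miR-126 with the other miRNAs detected on all arrays was 0.328. In MTX at 1 hour the 2 arrays differed by 1.04 in miR-126 and 0.89 in miR-130a, in MS at 1 hour by 0.94 and 0.96, and in MTX at 34 days by 0.73 and 0.73, replicate 1 being higher in all 3. PLA at 34 days was an exception, with miR-126 at 6.38 and 5.33 while miR-130a was 9.95 and 9.90. miR-28 was less alike, with r of 0.579 to miR-126 and 0.693 to miR-130a, and 0.343 and 0.365 once group means were removed.

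**Figure D3:**
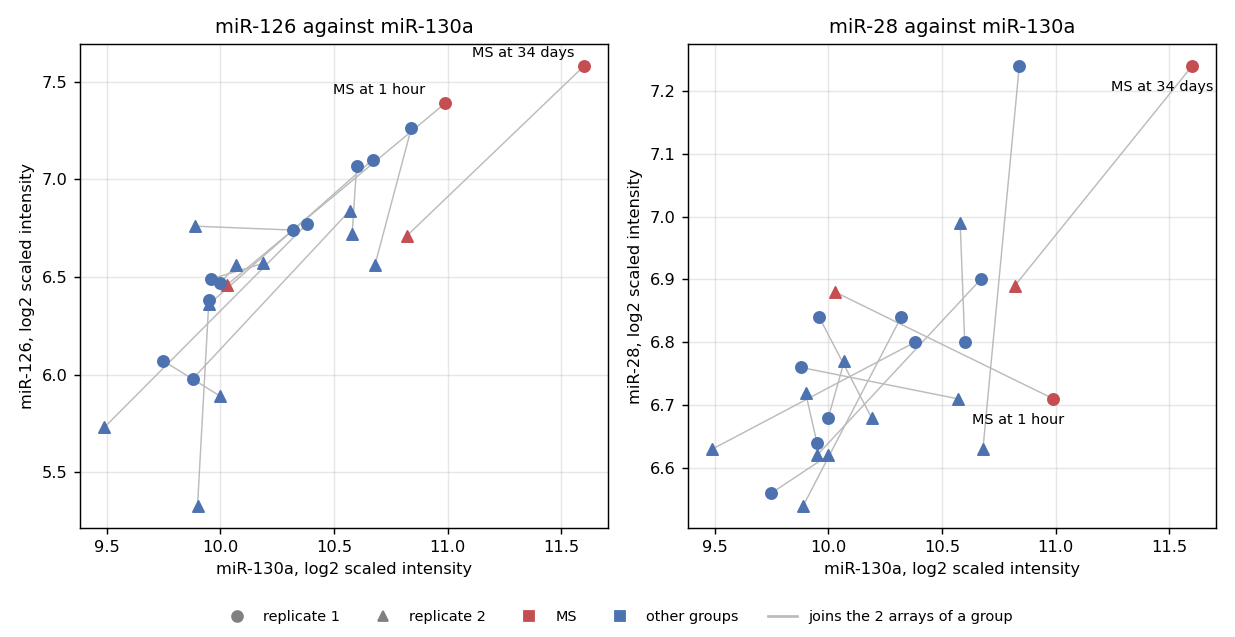
Each point is 1 of 24 arrays, with miR-130a on the horizontal axis and miR-126 (left) or miR-28 (right) on the vertical axis, all as log2 scaled intensity. Circles are replicate 1, triangles replicate 2, red points MS, and grey lines join the 2 arrays of a group. miR-126 and miR-130a rise together (r = 0.831), and the 2 MS arrays numbered 1 sit at the upper end, while for miR-28 r was 0.693.

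The 3 miRNAs most like each member were picked by r over the 24 arrays among the 131 other miRNAs detected on all of them. For miR-130a they were miR-181d (0.975), miR-20a (0.970) and miR-17-5p (0.970). miR-17-5p (0.856), miR-181d (0.841) and miR-181c (0.840) came first for miR-126. For miR-28 they were miR-24 (0.809), miR-191 (0.800) and miR-22 (0.786). These names depended on the processing. miR-181d came first for miR-130a also with slide or group means removed, without the 2 MS arrays numbered 1, without scaling and in the authors' log2 values. For miR-126 none of the 3 stayed with group means removed (miR-23a, miR-26a and miR-10a-5p) or in the authors' log2 values (miR-32, miR-320 and miR-19a). For miR-28 the 3 with group means removed were miR-22, miR-186 and miR-484. miR-126 ranked 36 of 131 in likeness to miR-130a, and miR-130a ranked 7 of 131 in likeness to miR-126.

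Relatives and strand partners were looked at next, a list of 15 names of which 13 are on the array and 5 passed the filter. In MS at 34 days against CIA, 1 of the 5 was called, against 19.0% of all miRNAs, namely miR-301a, which rose by 1.28 ± 0.40 (adjusted p = 0.0407), and the 5 had a median difference of 0.97 against 0.16 over all 210 miRNAs. miR-130b, the near copy of miR-130a, differed by 0.44 ± 0.18 (adjusted p = 0.0718). Its strand partner miR-130b* was detected on both MS arrays (3.89 and 3.18) and on 1 CIA array (2.62, beside the floor of 2.53). Within an array, the log2 ratio of miR-130a to miR-130b was not constant. It ran from 1.48 to 2.93 and was 0.89 larger on average in MS at 34 days than in CIA, whereas the ratio of miR-130a to miR-301a changed by 0.06. For miR-151, listed as a relative of miR-28, the difference was 0.97 ± 0.36 (adjusted p = 0.0552). Against PLA at 34 days none of the 5 was called. All 5 had an unadjusted p under 0.05, as did 40.0% of all miRNAs, and were higher in MS, but miR-130b* and miR-301b were detected on neither PLA array, so their differences are set by values below detection.

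Lists of other miRNAs of platelets, endothelium, blood cells, fibroblasts and liver were set beside the members, and their part in the members' differences was not tested. In bulk samples, fewer cells of a type and less RNA per cell cannot be told apart. Of 11 further platelet miRNAs, 8 to 11 were detected per array and 10 tested. In MS at 34 days against CIA 3 of the 10 were called, against 19.0% of all miRNAs, all higher, miR-191 (1.02 ± 0.27), miR-223 (0.89 ± 0.25) and miR-24 (0.78 ± 0.24), and the median was 0.68. The largest difference on the list was that of miR-320 (1.04 ± 0.38, adjusted p = 0.0549). miR-221 differed by -0.84 ± 0.45, miR-222 by -0.01 ± 0.33 and miR-21 by 0.01 ± 0.28. miR-222 and miR-423 were detected on no CIA array and on no PLA array at 34 days, so values below detection set their differences. Against PLA at 34 days none of the 10 was called, and the median was 0.46 against 0.21 over all miRNAs. At an unadjusted p under 0.05, 5 were higher and 1 lower, against 40.0% of all miRNAs in either direction. miR-191, miR-223 and miR-24 also occur in other blood cells. The summed scaled intensity of all 11 platelet miRNAs, most of it from miR-21, was 42773 to 45010 in MS at 34 days, 35910 to 37105 in CIA and 32844 to 44024 in PLA at 34 days.

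Of 7 further endothelial miRNAs 3 to 5 were detected per array, miR-10b on none and miR-126* on 2 arrays, and 4 were tested. None of the 4 was called in MS at 34 days against CIA, and their median of 0.20 was near the 0.16 of all miRNAs. An unadjusted p under 0.05 was found for 1 of the 4, against 48.6% of all miRNAs. miR-10a-5p differed by 1.14 ± 0.45 (adjusted p = 0.0621) and miR-221 by -0.84 ± 0.45 (adjusted p = 0.151). Their summed intensity was 5037 to 7277 in MS at 34 days and 4191 to 4957 in CIA. 

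The 4 lymphocyte miRNAs on the array were all detected on all 24 arrays. In MS at 34 days their summed intensity was 2137 on one array and 7566 on the other, against 13915 to 15190 in CIA and 12585 to 12994 in PLA at 34 days. None of the 4 was called against CIA, and all 4 were lower, with a median of -1.04. An unadjusted p under 0.05 was found for 3 of them, against 48.6% of all miRNAs in either direction. The list holds miR-181a and miR-181b but not miR-181c and miR-181d. Over the 24 arrays miR-181a had r of -0.729 with miR-126 and -0.808 with miR-130a. miR-181d had 0.841 and 0.975, so the miR-181 miRNAs did not all run against the members. miR-150, a miRNA of mature lymphocytes, was 9.55 and 12.43 in MS at 34 days, 10.26 and 13.29 in MS at 1 hour, 13.38 and 13.47 in CIA, and 11.65 or more on the other arrays. Its 2 lowest arrays are thus the 2 that were highest in miR-126 and miR-130a, and over all arrays r with miR-150 was -0.722 for miR-126, -0.866 for miR-130a and -0.546 for miR-28. The lymphocyte miRNAs' sum was also low in ANE at 1 hour (6285 to 7026), where the mean of miR-130a came next after that of MS at 34 days. In PLA at 1 hour it was 4744 on one array and 12012 on the other, and the miR-130a mean (10.22 ± 0.49) ranked 6 of 12. The lowest r with miR-130a was that of miR-146a, a myeloid miRNA (-0.879, rank 131 of 131). MS at 34 days and ANE at 1 hour lie on slide 1, as do MTX and PLA at 34 days.

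Myeloid and erythroid miRNAs gave a mixed picture in MS at 34 days against CIA. Of 4 myeloid miRNAs 1 was called, against 19.0% of all miRNAs, namely miR-223 (also on the platelet list). The median of the 4 was -0.03, while miR-146a differed by -1.52 ± 0.53 (adjusted p = 0.0526). Summed myeloid intensity was 20522 to 26878 in MS at 34 days and 16757 to 20355 in CIA. None of the 3 erythroid miRNAs was called and none had an unadjusted p under 0.05, with sums of 4720 to 8846 in MS at 34 days, 4361 to 27410 in CIA and 17946 to 19009 in PLA. Of 4 miRNAs typical of fibroblasts and smooth muscle, miR-143 was detected on all arrays and miR-145 on 5, while miR-214 and miR-199a-5p were detected on none. None of the 2 tested was called. An unadjusted p under 0.05 was found for miR-143 (1.32 ± 0.46, adjusted p = 0.0526), as for 48.6% of all miRNAs. Neither liver miRNA, miR-122 or miR-192, was called there, and their summed intensity was 19 to 24 in MS at 34 days and 27 to 38 in CIA.

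**Figure D4:**
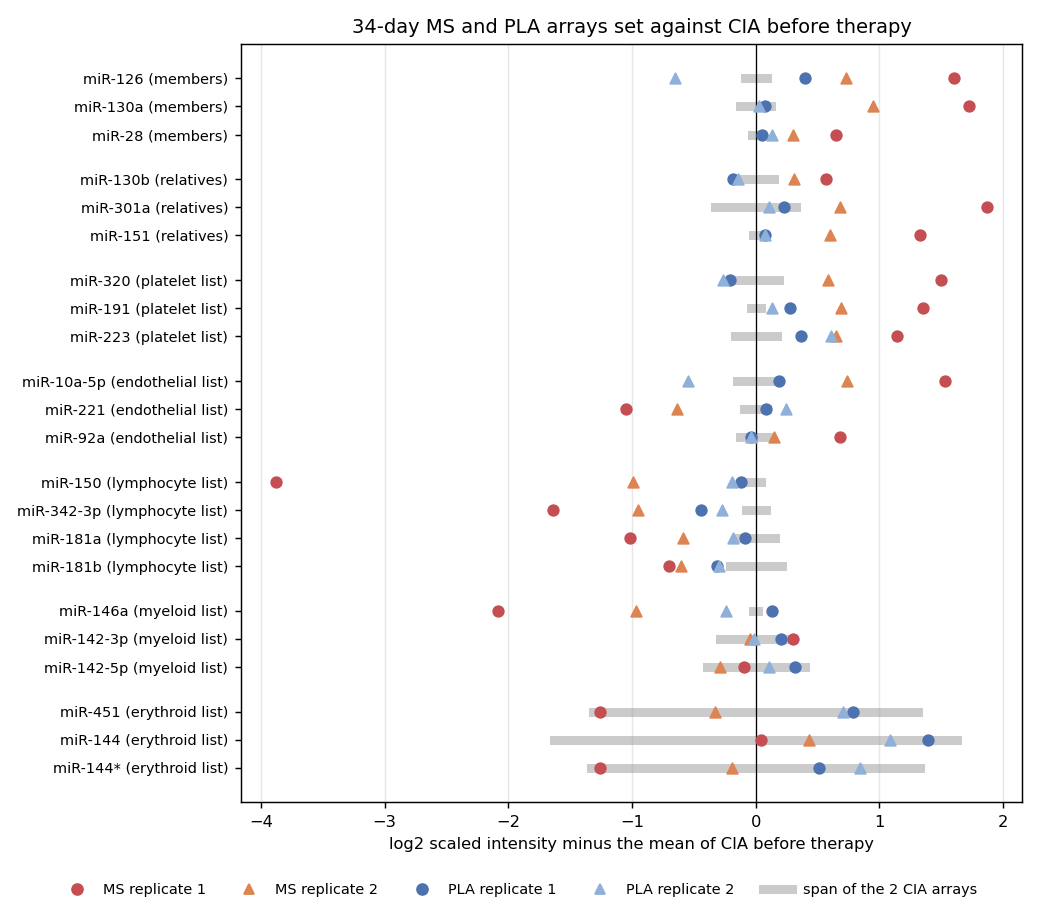
Log2 scaled intensity of each 34-day MS array (red and orange) and PLA array (blue). Values are given minus the mean of the 2 CIA arrays before therapy (horizontal axis). Drawn are miR-126, miR-130a, miR-28, the relatives and some of the listed miRNAs detected on all arrays. The listed miR-21, miR-22, miR-24, miR-143 and miR-192 were also detected on all arrays and are not drawn. miR-221, on the platelet and endothelial lists, is drawn under the endothelial list. Grey bars span the 2 CIA arrays. Both MS arrays lie above the CIA arrays for miR-126, miR-130a and miR-28, and both lie below them for miR-150, with replicate 1 farther out in each case.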

How the data were processed

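Per the labels, RNA of mononuclear cells was labelled with Cy3. The authors' scanner files, read with Agilent Feature Extraction 10.7.3.1 per the file headers, hold background-corrected linear intensity values, and each miRNA's spots were summed by the software into a total intensity with a detection flag. Undetected values equal the listed error. The authors also deposited a log2 table, whose normalisation the table does not state (the processing notes name RMA), used as an alternative.

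Intensities were scaled to a common 75th percentile over the 132 miRNAs detected on all 24 arrays, floored at 5.76 (2.53 on the log2 scale) and logged. A filter of detection on at least 3 arrays left 210 miRNAs, tested with limma 3.58.1 in R 4.3.3 (lmFit, eBayes) in one model of 12 group means with 12 residual degrees of freedom, two-sided, with Benjamini-Hochberg adjustment over the 210. Lists, likeness and figures were computed with Python 3.11.15, and the fit was tested on simulated data. Groups followed the labels. For NOCIA at 34 days 1 label line names 1 hour, while the title names 34 days, which was used. The 4 miRNAs and the lists were chosen with earlier results of these data known. Full statistics were given where a member's unadjusted p was under 0.05 or its difference over 1, and in CIA against NOCIA before therapy, MS at 34 days against CIA and MS against PLA at 34 days. Up to 4 miRNAs of each list other than the relatives were named, those with the largest differences, and the 3 most alike for each member. miR-24, miR-22, miR-221, miR-222, miR-21 and miR-423 among the platelet miRNAs fall outside this rule and were named after their values were seen. The same holds for the likeness names under other settings and the undetected miR-10b. Alternatives were other scalings, normexp with offset 50 on the median spot signal, the log2 table, other filters and floors, fewer arrays, the replicate number as a block, and the study's threshold (p under 0.05 and a fold over 2). The number of arrays limits the precision.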

Additional observations from a re-analysis of the deposited data

How the results depend on the processing

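The call on miR-130a in MS at 34 days against CIA was lost with scaling over all miRNAs (1.14), quantile normalisation (1.13), no detection filter (1.33, more miRNAs tested) or only the arrays compared (1.33), and without both MS arrays numbered 1, a choice made after seeing the data (0.94). The cause was not tested for the 2 scalings. Members called there, 1 in all, became 0 under each of these 5 and 3 without scaling. They became 2 with only the 132 miRNAs detected on all arrays, of which 65 were called. By the study's threshold they were also 2, with 37 called over all miRNAs. Without scaling the median of all miRNAs was 1.32 instead of 0.16 and 128 were called higher and 4 lower, instead of 33 and 7, miR-126 was at 2.36, miR-28 at 1.67 and miR-130a 1.21 above that median. In the authors' log2 values 58 were higher and 12 lower, with quantile normalisation 2 and 6, with scaling over all miRNAs none, and with normexp 43 and 16. With normexp miR-126 was at 0.49 against CIA and 0.49 against PLA, and miR-28 at 0.19 and 0.19. miR-126 (1.17) passed with only miRNAs detected on all arrays.

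Against PLA at 34 days, 3 members were called without scaling (2.33 for miR-126, 2.33 for miR-130a, 1.43 for miR-28, with a median over all of 1.13), and 2 without a filter, with only miRNAs detected on all arrays (both at 1.29 in either case) or by the study's threshold. Over all miRNAs 124, 412, 36 and 31 were then called. The 412 without a filter are out of 677 miRNAs, of which 432 were detected on no array, so these calls include undetected miRNAs. In CIA against NOCIA the sign turned for miR-130a (0.05) and miR-28 (0.08) with scaling over all miRNAs, and for miR-28 (0.04) with quantile normalisation, with no call. Leaving out 1 array at a time, members called ran from 0 to 3 in MS against CIA and 0 to 2 in MS against PLA. In MS against CIA the differences were then 0.74 to 1.61 for miR-126, 0.94 to 1.72 for miR-130a and 0.30 to 0.65 for miR-28, and in MS against PLA 0.77 to 1.82 for miR-126 and 0.90 to 1.67 for miR-130a.

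The labels number replicates 1 and 2 in every group. Over 66 pairs of groups the deviations of same-numbered arrays had correlations from -0.767 to 0.845, with a median of -0.0345 and 26 above 0.1. So wide a spread cannot decide whether the numbers pair the samples. Per the paper, animals were sacrificed once their blood was drawn, so different groups hold different animals. With the replicate block, 2 members were called in MS against CIA (miR-126 at 1.17, adjusted p = 0.0452, beside miR-130a), and the count over all miRNAs was 61 instead of 40. The block changed no other member's call. With each group on 1 slide, no fit with slide as a term exists, and the planned one was not run. Of 275 recomputed counts of members called, 257 were the same as in the text. In 17 of the 18 comparisons the count in the text was 0, so most of these counts were 0 in both. For MS at 34 days against CIA, which held the call, it stayed the same only with normexp, the authors' log2 values or no floor.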
